A study of Mus musculus with 6 samples.

Results

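The Krüppel-like factors (KLFs) are transcription factors that bind GC-rich and CACCC-type DNA through a block of C2H2 zinc fingers at the end of the protein. Their other parts differ: some members mainly activate, Klf3 recruits the corepressor CtBP, and Klf9, Klf10, Klf11, Klf13 and Klf16 can recruit the corepressor Sin3A. In blood, Klf4 is known in mice for its role in making inflammatory monocytes, Klf2 for keeping lymphocytes and monocytes quiescent, and several members are induced within minutes of a stimulus. The 10 family genes described here (Klf2, Klf3, Klf4, Klf6, Klf7, Klf9, Klf10, Klf11, Klf13 and Klf16) were taken by symbol from a table of 15139 rows, and all 10 had a row and were tested.

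The cells were mouse bone marrow cultured with IL3 at 10 ng/ml and SCF at 50 ng/ml, cytokines on which mast cells and immature myeloid cells grow, in RPMI with 10% serum, and were taken for RNA at week 1. The tested genotype was MxCre+v: Dnmt3a-/- (KO, replicates 2 and 3; replicate 1 was not analysed here), and the control was MxCre+v: Dnmt3a+/+ (WT, replicates 1, 2 and 3). Both genotypes carry MxCre, a recombinase under the interferon-inducible Mx1 promoter that acts in blood cells among other tissues, and 1 label field calls the KO cells a knockdown. The sources used here give neither the age of the mice, nor how the Cre was induced, nor whether each library came from its own animal or culture. The p-values therefore describe library-to-library spread, which may be technical.

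Levels are in FPKM, fragments scaled to transcript length and library total, which allow genes to be compared per length but leave the depth of each library unknown. Changes are differences in log2(FPKM + 1), KO minus WT, from limma, with p-values adjusted by Benjamini-Hochberg over 11365 tested genes and a threshold of 0.05. By that rule 2507 genes, 22.1% of those tested, changed, 9.08% higher and 13% lower in KO, with a median log2 change of -0.04 over all tested genes. The count was 1623 without WT replicate 2 and 1312 with sex as a covariate, and the share of calls that were higher in KO was 41.2%, or 53.8% after upper-quartile scaling. Dnmt3a itself had 2.58 and 3.42 FPKM in KO, against 6.68, 9.99 and 9.04 FPKM in WT. Xist and Ddx3y placed WT replicates 2 and 3 as female and WT replicate 1 and both KO libraries as male, so sex was not balanced between the genotypes. With sex as a covariate, the change therefore rests on both KO libraries against WT replicate 1 alone. The WT libraries thus came from more than 1 animal. Whether WT replicates 2 and 3, or the KO libraries, came from separate animals is not known.

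Klf2 and Klf6 rose in the KO cultures, Klf4, Klf10 and Klf13 fell, and the other 5 genes did not pass. Klf4 showed the largest fold, with 4.06 times as much transcript in WT as in KO, and Klf2 had 2.57 times as much in KO as in WT. The share of members that passed, 5 of 10, stands beside 22.1% of all tested genes, and the 2 higher and 3 lower members stand beside 9.08% and 13%. Both KO libraries lay outside the WT range for 7 of the 10 genes, 3 above and 4 below, while 51.1% of all tested genes did so, 20.4% above and 30.8% below. The count of members that passed was 3 when WT replicate 1 or WT replicate 3 was left out, Klf10 and Klf13 being lost, and 4 without KO replicate 3. The family was not tested against the rest of the table.

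**Figure D1:**
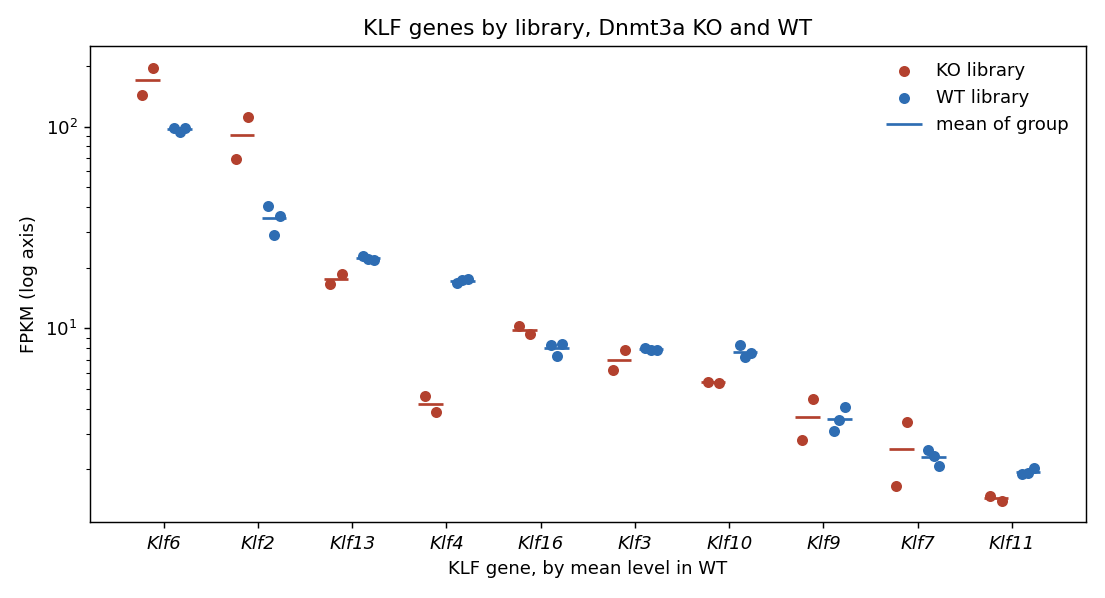
FPKM of each KLF gene on a log axis, with 1 point per library, KO left of WT, and a line at each group's mean. Klf4 lies at 4.64 and 3.84 FPKM in KO, below 16.7 to 17.5 FPKM in WT, while Klf2 and Klf6 lie above the WT libraries.

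The promoters of the members with the largest changes, Klf2, Klf6 and Klf4, are given as the 250 bases before the annotated start, 5′ to 3′ on the strand of the gene, from RefSeq on GRCm38.p6, the same assembly as the mm10 build of the submitters' processing notes. Capitals mark the GC box GGGCGG on either strand, a sequence that KLF and SP proteins bind, and in Klf2 also a match to the MEF2 site. The Klf2 sequence lies at chr8:72318812-72319061 on the plus strand, that of Klf6 at chr13:5861239-5861488 on the plus strand and that of Klf4 at chr4:55532476-55532725 on the minus strand.
Klf2: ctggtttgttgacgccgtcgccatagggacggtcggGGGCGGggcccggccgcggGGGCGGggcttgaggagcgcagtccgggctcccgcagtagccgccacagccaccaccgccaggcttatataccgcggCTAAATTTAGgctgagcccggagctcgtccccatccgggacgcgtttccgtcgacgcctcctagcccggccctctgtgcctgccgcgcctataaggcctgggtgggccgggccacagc
Klf6: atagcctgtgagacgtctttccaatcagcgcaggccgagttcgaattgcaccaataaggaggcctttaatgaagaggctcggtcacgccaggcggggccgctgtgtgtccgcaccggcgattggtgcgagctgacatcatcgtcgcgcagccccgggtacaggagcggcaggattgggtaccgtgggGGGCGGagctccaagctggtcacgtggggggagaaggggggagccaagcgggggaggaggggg
Klf4: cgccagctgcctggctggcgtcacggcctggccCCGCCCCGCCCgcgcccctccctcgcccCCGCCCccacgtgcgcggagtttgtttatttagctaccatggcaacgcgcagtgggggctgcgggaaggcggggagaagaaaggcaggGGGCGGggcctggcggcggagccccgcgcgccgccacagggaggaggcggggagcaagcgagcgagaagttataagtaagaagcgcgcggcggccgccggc

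Promoter windows of 300 bases, 250 before and 50 after the start, were found for 8 of the 10 genes. GGGCGG was in 7 of the 8 windows, against 62.4% of 11364 windows of tested genes and 35.7% of all 32851 windows, with matches counted on both strands and allowed to overlap. CACCC, the other sequence typical of KLF binding, was in 5 of the 8, against 62.7% of windows of tested genes and 57.5% of all windows. It was found in Klf2, Klf3, Klf7, Klf9 and Klf13, and these letters were not in the windows of Klf4, Klf6 and Klf11. The match to the MEF2 site in Klf2 ran from 118 to 109 bases before the start, and it was the only one among the 8, where 1.5% of windows of tested genes and 3.19% of all windows held one. TGACGTCA, the full cAMP response element, and the CArG box of serum response factor were in none of the 8, against 2.99% and 1.27% of windows of tested genes and 1.79% and 1.63% of all windows. CG dinucleotides, the substrate of Dnmt3a, numbered 16 in Klf7 and 23 in Klf6, and up to 40 in Klf4 and 42 in Klf11, against a median of 20 in windows of tested genes. DNA methylation was not measured in these files.

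Klf4 (gene 16600 in the table, GRCm38.p6 chromosome 4, bases 55527137 to 55532475) encodes an activator and repressor that mouse monocytes need in order to form. It had 4.64 and 3.84 FPKM in KO, against 16.7, 17.3 and 17.5 FPKM in WT. The libraries of each genotype lay close together and the groups did not overlap. The mean was 4.24 ± 0.566 FPKM in KO (SD, n = 2) and 17.2 ± 0.412 FPKM in WT (SD, n = 3). The log2 change was -1.80 ± 0.10 (SE; limma adjusted p = 0.000236), and 46 genes that passed, Klf4 included, fell by at least as much. The call held under all 17 alternatives, with log2 changes between -2.0 and -1.69.

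Most monocyte and macrophage genes moved with Klf4. Of the 14 in that marker list, all tested, 11 fell and 1 rose, with a median log2 change of -1.36. None was at 0 in every library. Cx3cr1 rose, with 26.1 and 24.5 FPKM in KO, against 9.26, 7.91 and 9.51 FPKM in WT. Ly6c2 (log2 change -0.04) and Adgre1 (-0.05) did not pass, and their KO and WT ranges overlapped. The summed level of the 14 genes was 2684 to 2887 FPKM in KO libraries and 6329 to 8200 FPKM in WT libraries. In bulk RNA, fewer cells of a type and less RNA per cell cannot be told apart, and the part of these cells in the level of Klf4 was not tested. Of the KLF4 target genes known from monocytes, macrophages and epithelium, 6 of 8 were tested. The cell cycle inhibitor gene Cdkn1a rose, with 323 and 373 FPKM in KO and 205, 191 and 198 FPKM in WT. Cd14, a coreceptor for lipopolysaccharide that is also in the monocyte list, fell by 1.42 on the log2 scale and Ccnd1, cyclin D1, by 0.67. The list's median log2 change was -0.57, and the call of Ccnd1 held in 12 of 16 alternatives.

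The 3 genes whose profile over the 5 libraries lay nearest to that of Klf4 were Tnfrsf1b, a receptor for tumour necrosis factor, Ms4a6d, a membrane protein gene of the Ms4a cluster, and App, the amyloid precursor protein gene. Their distances, in log2(FPKM + 1) centred on each gene's mean, were 0.126, 0.126 and 0.127. Tnfrsf1b had 17.2 and 15.1 FPKM in KO, against 52.8, 56.0 and 54.3 FPKM in WT. Because it was chosen for nearness to Klf4 in these libraries, its like fall and slightly lower KO replicate 3 follow from the choice.

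Klf2 (gene 16598), on chromosome 8 from 72319062 to 72321654, is the member known for lymphocyte quiescence and for the response of endothelium to flow. It had 69.3 and 112 FPKM in KO replicates 2 and 3, against 40.6, 29.2 and 36.1 FPKM in WT. Both KO libraries were above every WT library, and they lay far from each other. The mean was 90.6 ± 30.1 FPKM in KO (SD, n = 2) and 35.3 ± 5.76 FPKM in WT (SD, n = 3). KO exceeded WT by 1.31 ± 0.21 on the log2 scale (SE; adjusted p = 0.00515 in limma). Without KO replicate 3 the log2 change was 0.97, and without KO replicate 2 it was 1.65. With sex as a covariate it was 1.10, from both KO libraries against WT replicate 1 alone. The call held under all 17 alternatives, with adjusted p between 0.000293 and 0.0461, the highest with sex as a covariate.

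Markers of the cell types in which Klf2 is best known were mixed. The endothelial genes Cdh5 and Kdr had at most 0.08 FPKM in KO and at most 0.12 FPKM in WT, while Pecam1, in the same list but also made by blood cells, had 105 and 114 FPKM in KO, against 68.5, 70.4 and 78.6 FPKM in WT. Of the T and NK cell genes, Cd8a and Klrb1c had at most 0.66 FPKM in KO and 0.45 FPKM in WT, while Nkg7, a granule protein gene, had 40.1 and 37.1 FPKM in KO, against 67.9, 54.1 and 54.98 FPKM in WT. Of the B cell genes, Cd79a had at most 0.11 FPKM in KO and 0.47 FPKM in WT, and Blnk and Il7r had 3.26 to 5.44 FPKM in KO and 7.77 to 13.1 FPKM in WT. The part of these cells, and of the monocytes above, in the level of Klf2 was not tested. Of 8 KLF2 target genes known from lymphocytes and endothelium, 6 were tested, of which 2 rose and 1 fell, with a median log2 change of -0.02. Itgb7, an integrin chain used in homing, rose by 0.58 ± 0.07 and Cd69, an early activation antigen, by 1.28 ± 0.13. S1pr1, the sphingosine phosphate receptor gene through which KLF2 controls T cell egress, had 4.97 and 6.41 FPKM in KO and 4.56, 6.16 and 7.55 FPKM in WT. Its ranges overlapped, and the log2 change of -0.07 had a 95% interval of -0.52 to 0.38.

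Most kinase and MEF2 genes that lie upstream of Klf2 and Klf4 in other cells did not pass. Of 7 tested genes of the ERK5 route, none rose and 2 fell, with a median log2 change of -0.14. Over all tested genes, 9.08% rose and 13% fell, with a median log2 change of -0.04. Mef2c, a MEF2 factor, had 0.68 and 0.69 FPKM in KO, against 1.99, 1.87 and 2.13 FPKM in WT (log2 change -0.83 ± 0.13 SE, limma adjusted p = 0.00450). Both KO values were below the filter of 1 FPKM, which Mef2c met only through its WT libraries. Mef2a fell by 0.34, a call that held in 9 of 17 alternatives. Mapk7, which encodes ERK5, had 9.17 and 10.5 FPKM in KO and 15.2, 13.1 and 11.5 FPKM in WT, groups that did not overlap, but it did not pass (log2 change -0.40, adjusted p = 0.0634, and between 0.0445 and 0.199 over its 17 alternatives, of which 2 called it).

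Klf6 (gene 23849), on chromosome 13 from 5861489 to 5870393, is a widely expressed activator that promotes inflammatory gene expression in mouse macrophages. It was the most abundant member in every library, with 143 and 196 FPKM in KO, against 98.1, 94.4 and 98.8 FPKM in WT. The WT libraries lay close together, and both KO libraries were above them. The mean was 170 ± 37.5 FPKM in KO (SD, n = 2) and 97.1 ± 2.35 FPKM in WT (SD, n = 3). KO exceeded WT by 0.78 ± 0.13 on the log2 scale (SE; adjusted p = 0.00541 in limma). The call held under all 17 alternatives, with log2 changes between 0.56, without KO replicate 3, and 1.01, without KO replicate 2.

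Klf7 (gene 93691), on chromosome 1 from 64029448 to 64122345, is best known from neurons. It had 1.65 and 3.42 FPKM in KO replicates 2 and 3, against 2.5, 2.32 and 2.08 FPKM in WT. The KO libraries lay on opposite sides of the WT libraries. The log2 change of 0.05 had a 95% interval of -0.45 to 0.56 and did not pass.

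**Figure D2:**
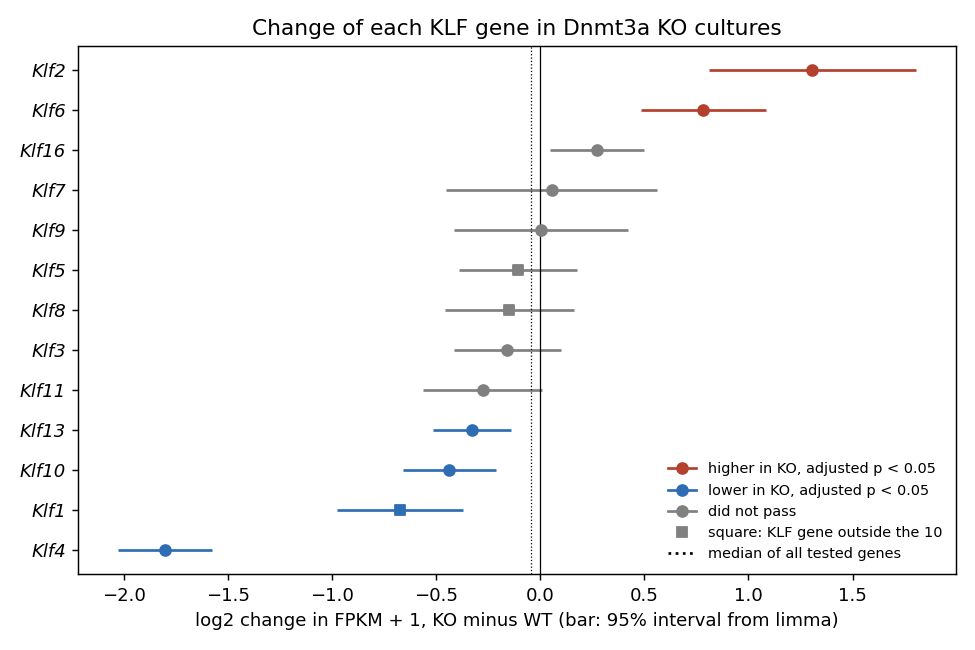
Log2 change of each KLF gene, KO minus WT, with its 95% interval from limma. Circles are the 10 genes, squares the other 3 family genes in the table, and the dotted line is the median of all tested genes at -0.04. Klf2 and Klf6 lie to the right of 0, and Klf4 lies farthest to the left.

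Klf3 (gene 16599), on chromosome 5 from 64803521 to 64832901, encodes a repressor that works through CtBP and limits other KLF proteins at shared sites in mouse red cell precursors. It had 6.19 and 7.78 FPKM in KO, against 8.01, 7.80 and 7.78 FPKM in WT, and KO replicate 3 equalled the lowest WT library. The log2 change of -0.16 had a 95% interval of -0.41 to 0.10 and did not pass. Of 14 genes of KLF corepressors and coactivators, 1 rose and 1 fell, with a median log2 change of 0.00. Ctbp2, a CtBP gene, had 12.6 and 12.98 FPKM in KO, against 16.5, 15.1 and 15.4 FPKM in WT, and fell by 0.27, a call that held in 3 of 17 alternatives. The acetyltransferase gene Kat2b rose by 0.37, a call that held in 11 of 17.

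Of the Sin3A-binding members, Klf10 and Klf13 fell, and Klf9, Klf11 and Klf16 did not pass. Klf10 (gene 21847), on chromosome 15 from 38291464 to 38300711, is an early target of TGF-beta signalling. It had 5.43 and 5.36 FPKM in KO, against 8.25, 7.21 and 7.53 FPKM in WT. The KO libraries nearly coincided and lay below all WT libraries. The log2 change was -0.44 ± 0.10 (SE; limma adjusted p = 0.0174), and 13 of 17 alternatives kept the call. Leaving out WT replicate 1, WT replicate 3 or KO replicate 3 ended it (adjusted p = 0.0563, 0.0543 and 0.0623, with a range of 0.0164 to 0.0698 over all alternatives).

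Klf11 (gene 194655), on chromosome 12 from 24651371 to 24662782, is the closest relative of Klf10. It had 1.47 and 1.40 FPKM in KO, against 1.89, 1.92 and 2.04 FPKM in WT. Both KO libraries were below every WT library, but the log2 change of -0.28 did not pass (limma adjusted p = 0.154, 95% interval -0.56 to 0.01). At levels this low the pseudocount of 1 shrinks the change, which was -0.42 with a pseudocount of 0.1.

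Genes of the TGF-beta pathway in which Klf10 and Klf11 act gave 3 rises and 1 fall among 11 tested, with a median log2 change of 0.01. The receptor gene Tgfbr1 had 34.9 and 40.5 FPKM in KO, against 19.9, 19.5 and 20.2 FPKM in WT, and rose by 0.89 ± 0.09. Tgfbr2, the other signalling receptor gene, rose by 0.46, while the coreceptor gene Tgfbr3 fell by 0.71. Tgfbr3 was low, with 0.41 and 0.25 FPKM in KO, against 1.32, 1.29 and 0.91 FPKM in WT. It met the filter of 1 FPKM only through WT replicates 1 and 2, and its log2 change was -1.57 with a pseudocount of 0.1. The calls of Tgfbr2 and Tgfbr3 held in 12 of 17 and 12 of 14 alternatives, and that of Tgfbr1 in all 17. Klf10, a target of these receptors in other cells, was thus lower in the libraries in which Tgfbr1 and Tgfbr2 were higher.

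Klf13 (gene 50794), on chromosome 7 from 63886351 to 63938915, is known from lymphocytes, where it activates a chemokine gene in human T cells. It had 16.6 and 18.6 FPKM in KO, against 22.9, 22.2 and 21.9 FPKM in WT, with both KO libraries below every WT library. The log2 change was -0.33 ± 0.08 (SE; limma adjusted p = 0.0267). The call was lost in 8 of 17 alternatives, among them sex as a covariate and the absence of any 1 of the WT libraries or KO replicate 2, with adjusted p between 0.0245 and 0.117 over all 17. Klf13 overlaps genes annotated on the opposite strand, none of them in the table, and the sources used here do not say whether the counting used strand. The same holds for Klf3 and Klf7.

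Klf16 (gene 118445), on chromosome 10 from 80567121 to 80577296, is a repressor first described for dopamine receptor genes. It had 10.3 and 9.38 FPKM in KO, against 8.26, 7.31 and 8.33 FPKM in WT. The KO libraries were above every WT library, and the log2 change of 0.27 ± 0.10 did not pass (limma adjusted p = 0.0889). After upper-quartile scaling it did (0.0394, within a range of 0.0394 to 0.384 over its alternatives).

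Klf9 (gene 16601), on chromosome 19 from 23141226 to 23168129, is induced by thyroid hormone and glucocorticoids in many tissues. It had 2.81 and 4.46 FPKM in KO replicates 2 and 3, against 3.10, 3.52 and 4.08 FPKM in WT, and the KO libraries lay on either side of the WT libraries. The log2 change of 0.00 had a 95% interval of -0.41 to 0.42. Of 7 tested genes that glucocorticoids induce together with Klf9, or that carry that response, 2 rose and 2 fell, with a median log2 change of 0.35. The phosphatase gene Dusp1 rose by 0.70 and the glucocorticoid receptor gene Nr3c1 by 0.35, while the receptor cochaperone gene Fkbp5 fell by 0.31 and Cebpd, a transcription factor gene, by 0.85. Of 17 alternatives, the calls of Dusp1, Nr3c1, Fkbp5 and Cebpd held in 13, 8, 9 and 15.

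The order of the levels, per length, was the same at the top and bottom in both genotypes, with Klf6, Klf2 and Klf13 at ranks 1, 2 and 3 and Klf9, Klf7 and Klf11 last. Klf4 had rank 7 in KO and rank 4 in WT. In KO, the ranges of Klf4 and Klf9 overlapped, and in WT those of Klf16 and Klf3 and those of Klf3 and Klf10, so these neighbours cannot be ordered. The ranges of Klf9 and Klf7 also overlapped in KO, but Klf9 was above Klf7 within each KO library. The summed level of the 10 genes was 262 and 363 FPKM in KO, against 210, 193 and 206 FPKM in WT, with both KO libraries above all WT libraries. An exact two-sided permutation of these 5 libraries has 10 splits and gave p = 0.2, the smallest it can give.

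Klf2 and Klf6 made up most of that sum. Klf2 accounted for 26.5% and 30.9% of it in KO, against 19.3%, 15.1% and 17.5% in WT, and Klf6 for 54.8% and 54.2% in KO, against 46.6%, 48.9% and 47.9% in WT. Klf4 accounted for 1.77% and 1.06% in KO, against 7.96%, 8.97% and 8.495% in WT. Without Klf2 and Klf6, the other 8 genes summed to 49.1 and 54.2 FPKM in KO, against 71.6, 69.6 and 71.3 FPKM in WT, so that the rise of the sum came from that pair alone. Per length, Klf2 exceeded Klf4 by 14.9 and 29.1 times in KO, against 2.43, 1.68 and 2.06 times in WT, ratios that did not overlap (exact two-sided permutation p = 0.2, the smallest possible).

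**Figure D3:**
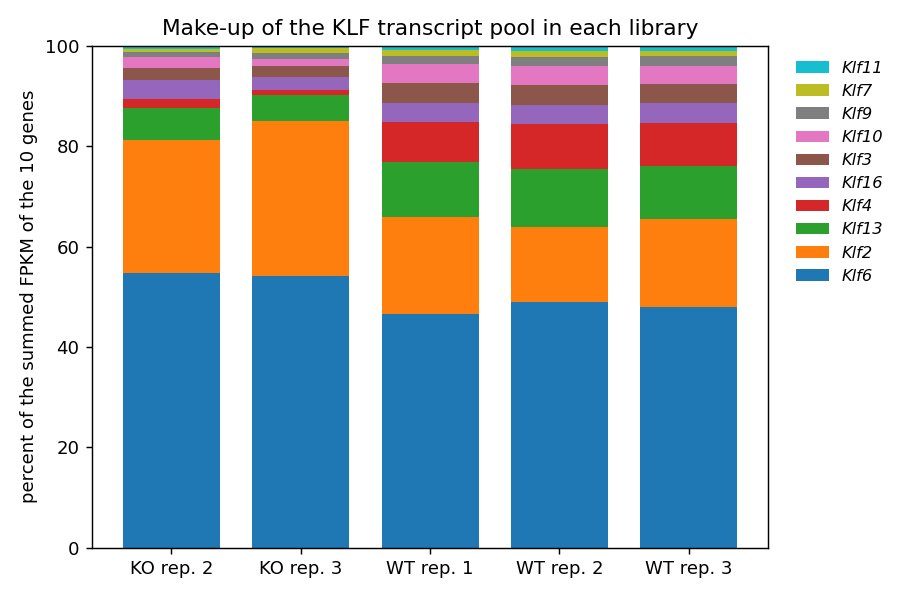
Percent of the summed FPKM of the 10 KLF genes that each gene contributed, with 1 bar per library, KO left of WT. Klf4 fills 1.77% and 1.06% of the KO bars and 7.96% to 8.97% of the WT bars.

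The KO libraries differed from each other in several members. Klf2, Klf6, Klf7 and Klf9 were higher in KO replicate 3 than in KO replicate 2 by 0.68, 0.45, 0.74 and 0.52 in log2(FPKM + 1). These differences lay at the 99.1, 96.8, 99.3 and 97.9 percentiles of the same difference over all tested genes, whose median was 0.03. Klf4, at -0.22, lay at the 16.8 percentile, and Klf10 and Klf11, at -0.02 and -0.04, near the middle.

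The immediate early genes, which are transcribed within minutes of a stimulus or of cell handling and to which Klf2, Klf4, Klf6 and Klf10 belong in many cells, mostly rose. Klf2 and Klf6 rose while Klf4 and Klf10 fell, and none of these 4 is in the list counted here. Of 18 tested, 14 rose and 1 fell in KO, with a median log2 change of 1.17, and 16 had both KO libraries above all WT libraries. Between the KO libraries, 16 of the 18 were higher in replicate 3, with a median difference of 0.43. The 6 largest changes were rises, of Fosb, Egr3, Nr4a1, Egr1, Ier2 and Fos, by 1.88 to 2.56 on the log2 scale. Fosb, which encodes an AP-1 subunit, had 81.9 and 160 FPKM in KO replicates 2 and 3, against 19.7, 16.6 and 19.8 FPKM in WT. Egr3, a zinc finger factor gene, had 71.7 and 166 FPKM in KO, against 21.6, 16.3 and 27.8 FPKM in WT. Without KO replicate 3, their log2 changes were 2.08 and 1.70, and all 6 genes kept their calls in all 17 alternatives. Atf3, a stress-induced factor gene, had 15.6 and 14.7 FPKM in KO, against 26.9, 33.9 and 33.9 FPKM in WT, and fell, and Fosl2, Ier5 and Myc did not pass. Dusp1 stands in this list and in that of glucocorticoid-induced genes. The sources used here do not record how the cultures were handled, and its part in the levels of Klf2 and Klf6 was not tested.

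Klf2 was also close in profile to Gbp4, Nfkbiz and Gbp6, its 3 nearest genes over the 5 libraries, at distances of 0.150, 0.183 and 0.202. Gbp4 and Gbp6 are interferon-induced guanylate-binding protein genes, and Nfkbiz encodes a nuclear regulator of NF-κB. Nfkbiz had 13.1 and 24.6 FPKM in KO, against 7.61, 6.02 and 6.74 FPKM in WT, and Gbp6 had 6.0 and 11.1 FPKM, against 2.92, 2.42 and 2.81 FPKM. Each was highest in KO replicate 3, as Klf2 was, which follows from their choice by nearness to Klf2 in these libraries.

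**Figure D4:**
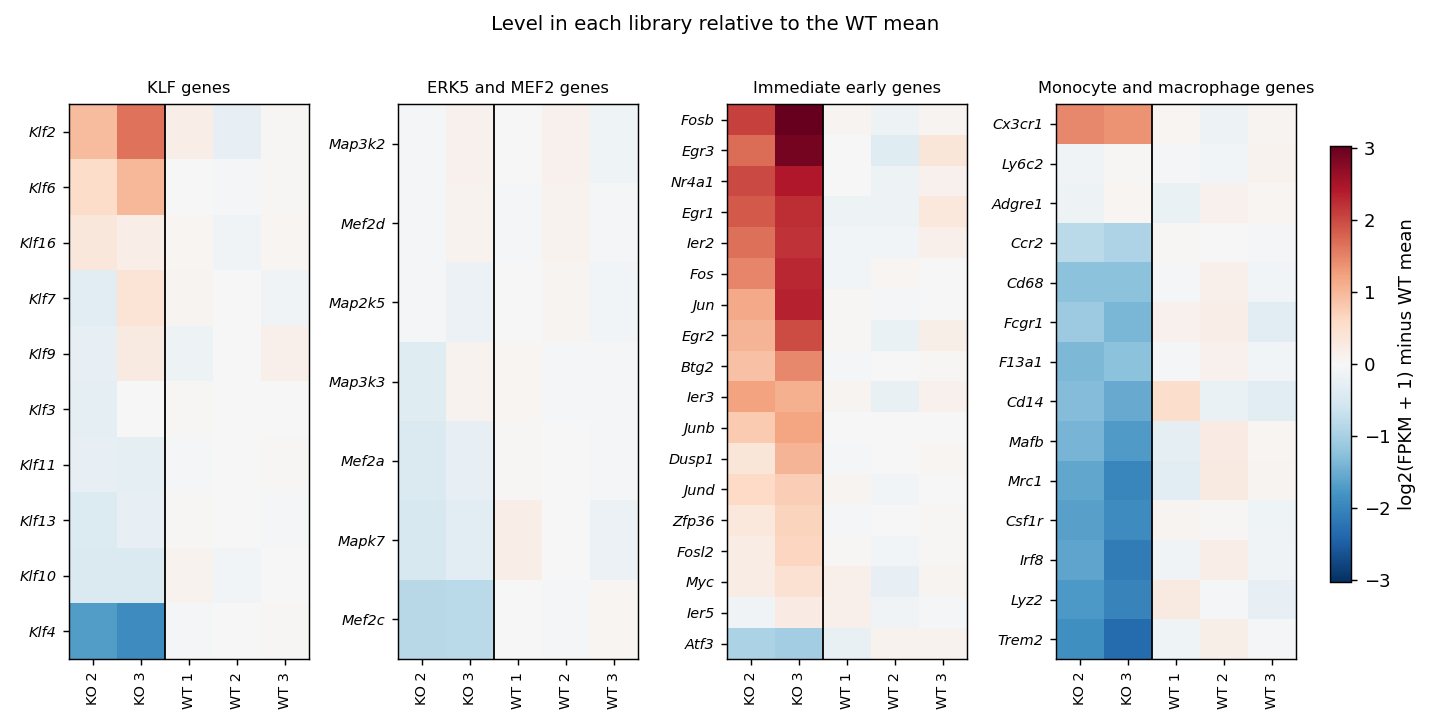
Level of each gene in each library as log2(FPKM + 1) minus the WT mean (red higher, blue lower), KO columns left of WT, for the KLF genes, ERK5 and MEF2 genes, immediate early genes, and monocyte and macrophage genes. The 2 KO columns share the rise of Klf2, Klf6 and most immediate early genes, which is larger in KO replicate 3, and the fall of Klf4 and most monocyte genes.

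Of 7 other family genes looked for, Klf1, Klf5 and Klf8 were in the table, and the rest were not analysed here. Klf1, the red cell member, had 1.19 and 1.15 FPKM in KO, against 2.22, 2.43 and 2.75 FPKM in WT, and fell by 0.67 ± 0.13, a call that held in 16 of 17 alternatives. Of the 8 erythroid marker genes tested, which include Klf1, 1 rose and 3 fell. Their summed level was 166 to 190 FPKM in KO and 172 to 201 FPKM in WT, a sum that mixes both directions. Gata1 rose, with 73.4 and 64.7 FPKM in KO, against 39.6, 42.1 and 43.7 FPKM in WT. Besides Klf1, Hba-a1 fell by 0.84 and Car2 by 0.46 on the log2 scale. The red cells' part in the fall of Klf1 was not tested. Klf5 (log2 change -0.11) and Klf8 (-0.15) did not pass. Among the SP genes, whose proteins share the zinc finger block, Sp2 had 9.23 and 9.48 FPKM in KO, against 11.5, 11.5 and 11.9 FPKM in WT, and fell by 0.29, a call that held in 5 of 17 alternatives. Sp3 (-0.17) and Sp4 (0.32) were among the 3 of 4 that did not pass. None of 6 tested genes of ubiquitin ligases that can act on KLF proteins passed in limma, with 3 at an unadjusted p under 0.05 and a median log2 change of 0.14.

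Mast cell genes rose and neutrophil genes fell in the same libraries. Of 13 mast cell markers, 10 rose and none fell, with summed levels of 28591 to 32755 FPKM in KO and 12161 to 13946 FPKM in WT. Of 12 neutrophil markers, 9 fell and none rose, with summed levels of 12723 to 16448 FPKM in KO and 22131 to 32791 FPKM in WT, and no gene of either list was at 0 in every library. Basophil genes gave 4 rises and 1 fall among 7 tested, eosinophil genes 1 rise among 5, and megakaryocyte genes 2 rises and 2 falls among 4. All 6 dendritic cell genes tested fell, with a median log2 change of -3.00. These were Itgax, H2-Aa, H2-Ab1, H2-Eb1, Cd74 and Ciita. Flt3, Cd209a and Zbtb46, of the same list, were too low to be tested in either genotype. They had at most 0.29 FPKM in KO and 0.57 FPKM in WT. Both B cell genes and the 1 T and NK cell gene tested also fell. The 1 tested gene of the endothelial and stromal list, Pecam1, rose. The part of these cells in the levels of the KLF genes was not tested.

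The authors' deposited table gives an unadjusted p under 0.05 for 7 of the 10 members. The adjusted p of its second test was under 0.05 for 2 of them, Klf2 (0.00200) and Klf4 (3.91e-06). In the authors' deposited table Klf6 had an adjusted p of 0.522 in that second test, whose input the sources used here do not give, and Klf10 one of 0.105.

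**Figure D5:**
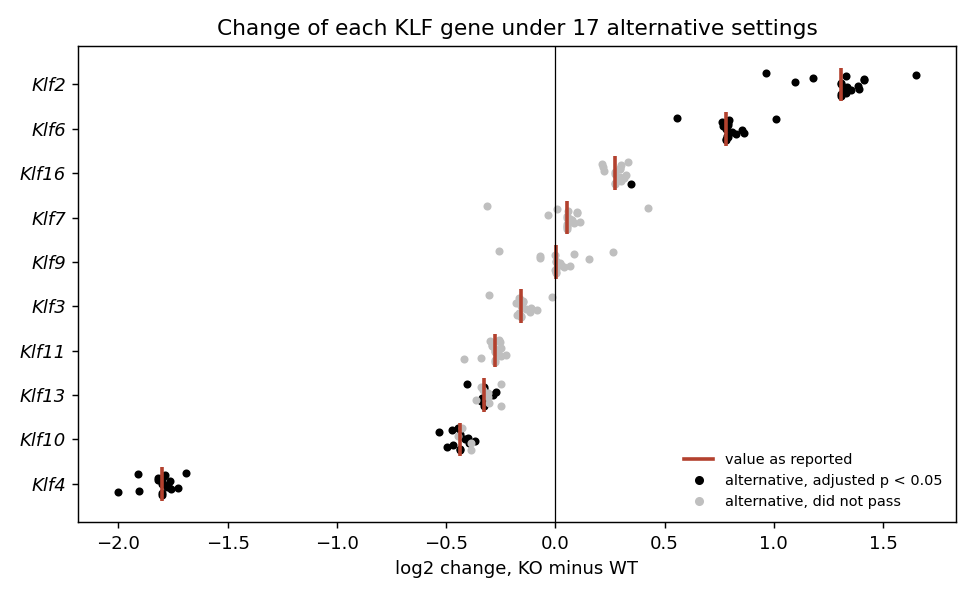
Log2 change of each KLF gene, KO minus WT, as reported (red bar) and under each alternative setting (points, black where adjusted p was under 0.05 and grey where it was not). The points of Klf2, Klf4 and Klf6 are all black, those of Klf10 and Klf13 are mixed, and those of Klf7 and Klf9 lie on both sides of 0.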

How the data were processed

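The authors deposited 1 table with FPKM of each gene in 5 libraries, to 2 decimals (unit per the file headers). Tools listed in the submitters' processing notes, without roles, were edgeR, HISAT and StringTie 1.2.1, and the build was mm10; the sources used here give no annotation or filters. Low FPKM showed no steps of whole reads, so depth and counting error are unknown, and FPKM summed to 560387 to 604368 per library. The authors also deposited a p-value, a second p-value with its adjusted value, and a signed fold, a log fold change and a log mean level, 3 scores that are not printed here.

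Here limma 3.58.1 in R 4.3.3 was fitted, with genotype as the only term and a trend of variance on level, to log2(FPKM + 1) for genes with at least 1 FPKM in at least 2 libraries, and was checked on simulated data. Gene names and positions came from RefSeq on GRCm38.p6 by gene number. The pseudocount understates changes of low genes. The members and gene lists were chosen with earlier results of these data known. Named genes were the members, the genes of each list that passed (the 6 largest changes where more did), any list gene with a stated role, and the 3 nearest profiles (Euclidean distance) to the largest rise and fall. Atf3, the 1 immediate early gene that fell, and Fosl2, Ier5 and Myc were named after their values were seen. So were the lymphoid, dendritic cell and endothelial markers, and the monocyte and erythroid markers not in a context list. Some list genes that passed are counted in their lists but not reported here by name.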

Additional observations from a re-analysis of the deposited data

How the results depend on the processing

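The counts of calls and the log2 changes of the members and of the context and nearest-profile genes named with a change were recomputed under 17 alternatives: another filter, pseudocount, scaling or variance model, sex or the replicate number as a term, and each library left out. Tgfbr3 had a value under 14 of them, and Mef2c, Ccnd1, Klf8 and Gbp4 under 16. List medians, summed levels, shares, marker genes, Fosl2, Ier5 and Myc were not recomputed. Of 170 values of the 10 members, 150 kept their direction and their side of the threshold, 12 lost the call, 1 gained it and 7 turned in sign. Klf2, Klf4 and Klf6 kept their calls throughout. The causes of the shifts below were not tested. The members called, 5, were 3 to 4 with 1 library left out and 3 with the replicate block. All genes called, 2507, were 1623 to 2659 with 1 library left out and 1312 with sex as a covariate. Called genes of the context lists, 34, were 21 to 36 with 1 library left out and 21 with sex. The share of calls that were higher in KO was 41.2%, and 53.8% after upper-quartile scaling. The sign of the log2 change turned for Klf7 with sex (-0.032) and without KO replicate 3, with a range of -0.31 to 0.42 over the libraries left out. It turned for Klf9 with a pseudocount of 0.1 (-0.00083), with the replicate block (-0.071) and without WT replicate 1, WT replicate 2 or KO replicate 3 (-0.26 to 0.26). It turned for Klf5 without KO replicate 2 (-0.24 to 0.021), and for S1pr1 with sex (0.26) and without WT replicate 3 or KO replicate 2 (-0.23 to 0.086). Genotypes share only replicate numbers 2 and 3, whose deviations had a correlation of 0.04 over genes, so the numbers were not taken to pair libraries. With the replicate block the log2 changes are those without WT replicate 1, so these 2 alternatives are not independent. With sex as a term they rest on WT replicate 1 as the only WT library. Under the block Klf10 and Klf13 had adjusted p of 0.0698 and 0.0954. With 1 KO library left, that library is assumed to vary like the WT ones. Levels near 1 FPKM limit what can be seen of Klf11, Klf7, Klf1, Mef2c, Tgfbr3 and Ccnd1.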
